A study of Mus musculus with 13 samples.

Results

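CC chemokines are small secreted proteins, named for their adjacent cysteines, that guide leukocytes through G protein-coupled receptors. The inflammatory members are induced in activated leukocytes and draw monocytes, granulocytes and T cells into tissue, whereas the homing members mark the route from tissue to lymphatic vessels and lymph nodes. In the lung, alveolar macrophages, dendritic cells, mast cells and lymphatic endothelium are known sources. The 8 genes Ccl3, Ccl4, Ccl6, Ccl9, Ccl17, Ccl22, Ccl19 and Ccl21a, of 31053 genes in the matrix, were chosen by symbol, and their transcripts were followed to the cell classes and libraries that held them. Ccl3 and Ccl4 are macrophage inflammatory proteins that attract monocytes, T cells and NK cells, and Ccr1 is a receptor of Ccl3. Ccl6 and Ccl9 are rodent chemokines that act on Ccr1, Ccl17 and Ccl22 are the ligands of Ccr4 on T helper 2 and regulatory T cells, and Ccl19 and Ccl21a are the ligands of Ccr7.

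Single-cell suspensions of mouse lung were profiled by droplet-based 3′ RNA sequencing. The labels name 13 samples: 1 each of Asthma, Control, PPE-emphysema and PPE-recovery, and 3 each of Acute injury, Con and emphysema. In the study, C57BL/6 mice were sensitised and challenged with ovalbumin (OVA) for asthma, or received repeated weekly porcine pancreatic elastase (PPE) into the airways for emphysema and were killed 3 days after the last dose. PPE-recovery mice received PPE only once and were killed weeks later, and acute injury was examined 3 days after the first dose. The 4 groups Asthma, Control, PPE-emphysema and PPE-recovery were given 1 mouse each in the single-cell experiment. The study also reports bulk RNA sequencing of mice, and it compared lung transcriptomes of control, acute injury and emphysema groups. Which of the 13 samples lie in the matrix is not known here. The sources used here give no age for these mice. The single matrix marks its cells with library numbers 1 to 7 and with no sample name, so that no library was assigned to a group and the models were not compared. The matrix was therefore treated as 1 sample, and every value below is a description of these libraries without a test between groups. An outlier criterion was applied to libraries only where results are flagged for a closer look. The intervals given are exact 95% intervals that cover counting error only.

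Of 37344 barcodes, 33618 with at most 10% of unique molecular identifiers (UMIs) from mitochondrial genes were kept, 2992 to 7626 per library, at a median of 5272 to 9114 UMIs per cell. Of 33495 barcode sequences, 123 occurred in more than 1 library. Libraries 4, 5 and 6 went against the lung label. They held 160900 to 200407 counts per 1000000 UMIs (CPM) of the haemoglobin gene Hbb-bs, against 40.5 to 156 in libraries 1, 2, 3 and 7. Sftpc, a surfactant gene of alveolar type 2 cells, was at 0 to 0.0660 CPM in libraries 4, 5 and 6, against 2674 to 9212 in the other 4. Of the 33618 cells, 20856 came from libraries 1, 2, 3 and 7. Clustering without the 8 chemokines gave 67 clusters, of which 47 were named in 23 classes from marker genes, while 20 clusters with 4429 cells kept only a number. Classes of at least 50 cells were compared, 37 in all.

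The chemokines fell to different source classes. The highest class was at least 5 times the next for 2 of the 8 genes, Ccl22 and Ccl21a, beside 5.63% of 15270 genes with at least 100 UMIs. Ccl3, Ccl4 and Ccl9 were highest in cells with basophil or mast cell markers (basophil-like below), Ccl6 in alveolar macrophage-like cells, Ccl17 and Ccl22 in mature dendritic cell-like cells, Ccl19 in cells with smooth muscle and pericyte markers (smooth muscle/pericyte-like below), and Ccl21a in lymphatic endothelial-like cells. The class with the highest level was not always the class with most of the transcripts. Basophil-like cells held 2.08% of the Ccl9 UMIs, and the unnamed cluster 6 held 34.6% of them.

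**Figure D1:**
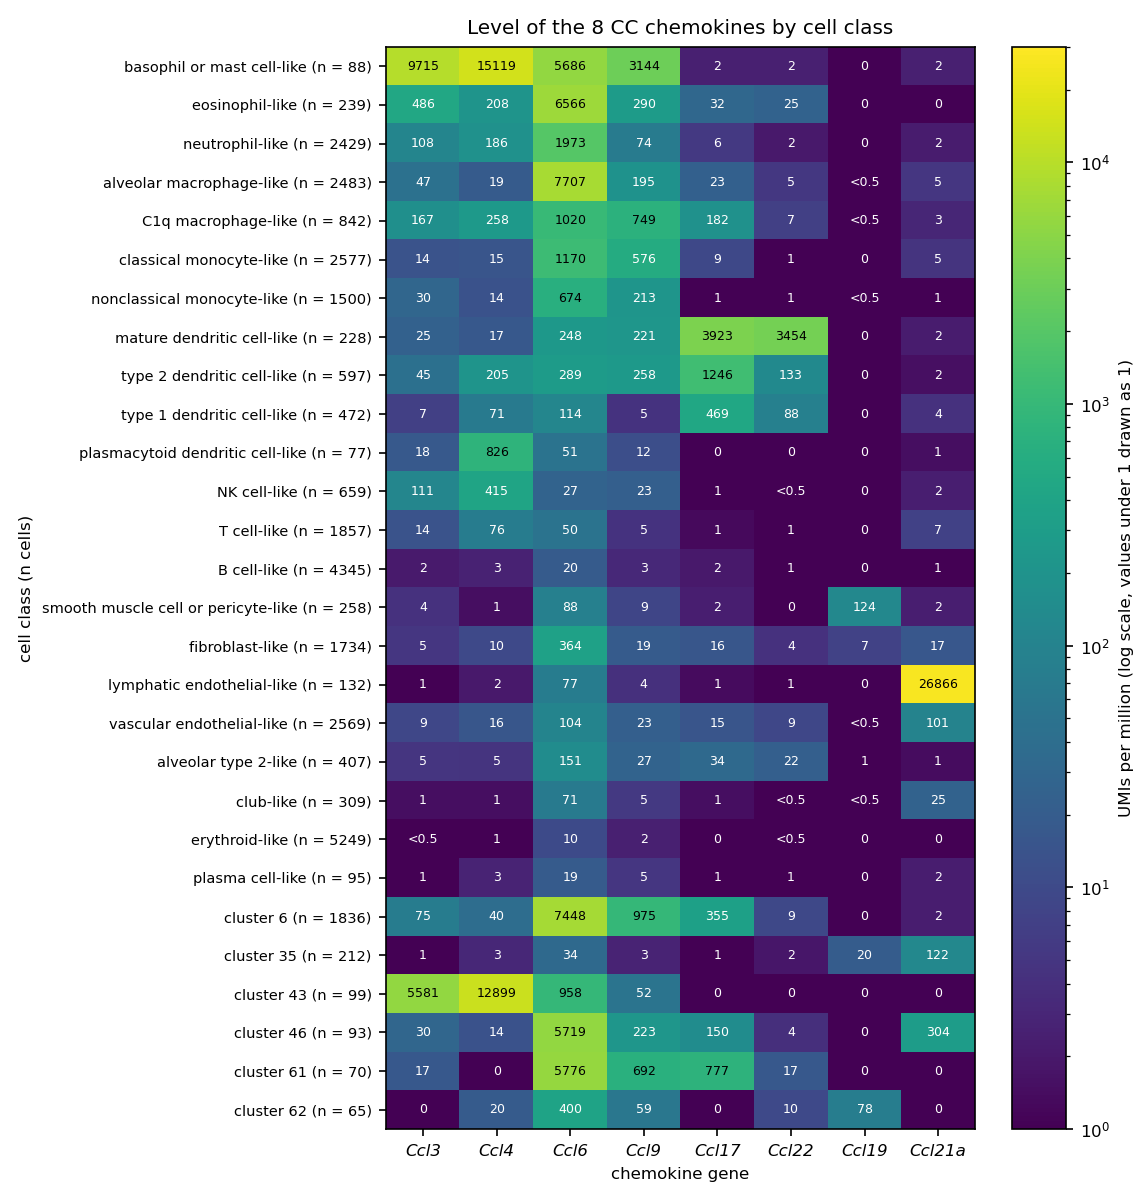
Level of each chemokine (columns) in each cell class (rows) over all 7 libraries, in CPM of the class on a log colour scale. Ccl21a reaches 26866 in lymphatic endothelial-like cells and 304 in the next class, while Ccl6 lies within 1.03-fold in its first 2 classes.

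Ccl3 and Ccl4 lie next to each other on chromosome 11. In GRCm38, Ccl3 is at chr11:83647844-83649355 on the minus strand and Ccl4 at chr11:83662584-83664683 on the plus strand, with 13228 bases between them. Basophil-like cells, named from markers such as the protease gene Mcpt8, the IgE receptor gene Fcer1a and Cpa3, numbered 88. Ccl3 stood at 9715 CPM there (9413 to 10023), with a UMI in 94.3% of cells, and these 88 cells held 28.01% of all Ccl3 UMIs. A median cell of this class carried 33.5 Ccl3 UMIs and 45.5 Ccl4 UMIs. Ccl4 stood at 15119 CPM (14743 to 15503), with 27.4% of its UMIs. By library, Ccl3 was 12807 CPM in library 1 (36 cells), 11077 in library 2 (19 cells), 7328 in library 3 (18 cells) and 11928 in library 7 (8 cells). Ccl4 was 20224, 14138, 13386 and 18572 CPM in the same libraries. Library 3 was the lowest for both genes. The 7 cells of libraries 5 and 6 lay below these, with Ccl3 at 387 CPM in 3 cells and 1772 CPM in 4 cells. All 7 fell in cluster 67, whereas 72.8% of the basophil-like cells of libraries 1, 2, 3 and 7 fell in cluster 66, with Ccl3 at 13394 CPM. Within cluster 67, Ccl3 was 4263 CPM in the 22 cells of libraries 1, 2, 3 and 7 against 1152 CPM in the 7 cells. Ccl3 in this class was 10518 CPM in libraries 1, 2, 3 and 7 alone.

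The next class for both genes was cluster 43, an unnamed group of 99 cells at a median of 2036 UMIs, led by Hcar2, Il1rn and Csf1, with the neutrophil markers S100a8 and Csf3r in 79.8% and 77.8% of its cells. Ccl3 stood at 5581 CPM and Ccl4 at 12899 CPM in cluster 43, so that the first class was 1.74 and 1.17 times the second. Of its 99 cells, 86 came from library 7. Without that library, the remaining 13 cells had Ccl3 at 4755 CPM and Ccl4 at 7155 CPM. C1q macrophage-like cells held 11.4% of the Ccl3 UMIs at 167 CPM and neutrophil-like cells 9.42% at 108 CPM. In C1q macrophage-like cells, Ccl3 was lowest in library 1 at 64.9 CPM and highest in library 2 at 274, a 4.22-fold range, and Ccl4 ranged from 110 to 452 CPM in the same 2 libraries, beside 3.55% of genes with a range of at least 4-fold over libraries 1, 2, 3 and 7.

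The balance of Ccl4 to Ccl3 differed between classes. The ratio of their UMIs also holds how well each transcript is captured, so only its variation over classes is described. Basophil-like cells had 1.56 Ccl4 UMIs per Ccl3 UMI (1.49 to 1.62), whereas plasmacytoid dendritic cell-like cells, the interferon-producing dendritic lineage, had 47.2 (26.8 to 91.8). Type 1 dendritic cell-like cells had 9.98, T cell-like cells 5.36 and NK cell-like cells 3.73. Alveolar macrophage-like cells had 0.401, eosinophil-like cells 0.429 (239 cells, 211 of them from library 7) and nonclassical monocyte-like cells 0.450. The intervals of the T cell-like, NK cell-like and plasmacytoid classes lay above 3, and those of these 3 myeloid classes lay below 1. This was not a split of all lymphoid from all myeloid classes. Neutrophil-like cells had Ccl4 at 186 and Ccl3 at 108 CPM, and cluster 43 had 12899 and 5581 CPM. B cell-like cells of cluster 3 in libraries 1, 2, 3 and 7 had 11.8 and 10.1 CPM. In plasmacytoid dendritic cell-like cells the excess of Ccl4 was seen in every library with more than 4 such cells. Libraries 1, 2, 3 and 7 held 5, 1, 6 and 0 Ccl3 UMIs there, against 139, 185, 157 and 83 Ccl4 UMIs. Of the 77 cells of this class, the 10 highest held 78.4% of its Ccl4 UMIs, and a median cell had 0. The interval of its ratio does not cover this spread between cells.

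Within a library and class, cells with a UMI of both Ccl3 and Ccl4 were more frequent than the product of the separate shares gives. The 881 such cells were 1.64 times the expected 536 (1.54 to 1.75), and the ratio was 1.75 (1.57 to 1.95) when each cell was thinned to 1500 UMIs. Of the 88 basophil-like cells, 78 had both transcripts, 5 had Ccl3 alone and none had Ccl4 alone. Over the 28 pairs of the 8 genes, the lower bound of this ratio lay above 1 for 8 pairs, and for 3 pairs after thinning. After thinning the upper bound lay below 1 for 1 pair, Ccl3 with Ccl17 at 0.660 (0.423 to 0.982), which was 1.02 unthinned. Depth differs between cells of a class, and the unthinned count was not corrected for it. Pairs of other genes were not counted, so it is not known how often any pair of genes reaches such a ratio.

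**Figure D2:**
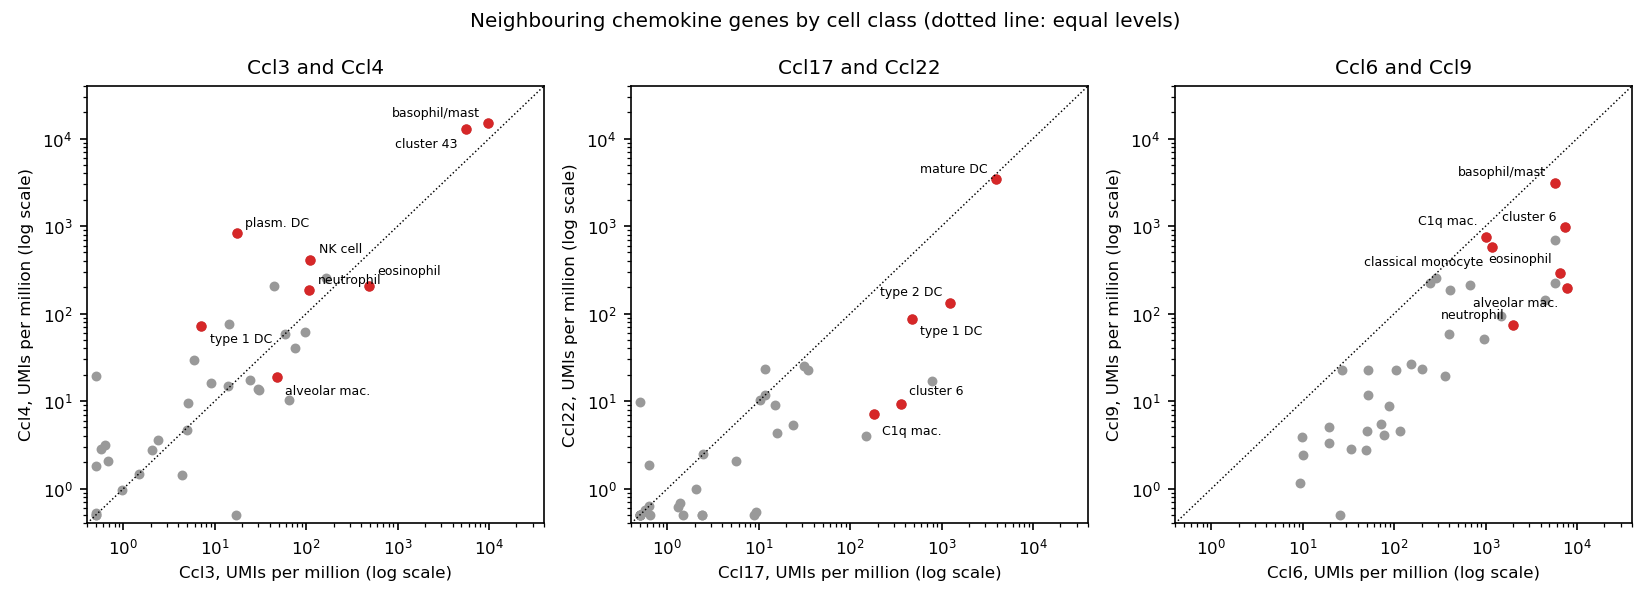
Levels of neighbouring chemokine genes against each other, with 1 point per cell class, both axes in CPM of the class on log scales, values under 0.5 drawn at 0.5 and the dotted line marking equal levels. Plasmacytoid dendritic cells lie furthest above the line for Ccl3 and Ccl4 at a ratio of 47.2. Among the dendritic and macrophage classes with UMIs of both Ccl17 and Ccl22, mature dendritic cells stand alone near the line at a ratio of 0.881.

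Ccl6 and Ccl9 are the other neighbouring pair of chromosome 11, both on the minus strand, at chr11:83587882-83593087 and chr11:83572919-83578636, with 9245 bases between them. Since they shared some source classes and not others, the 250 bases upstream of their RefSeq start sites (GRCm38.p6) are shown. Capitals mark a match to 1 of 4 motifs searched on both strands: the NF-kappaB consensus, the AP-1 letters TGANTCA, the TATA letters TATAAA, and the STAT6 letters, TTC and GAA with any 4 bases between them. Of the 8 genes, 7 were found in the promoter table and Ccl4 was not.

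Ccl6, chr11:83593088-83593337, minus strand: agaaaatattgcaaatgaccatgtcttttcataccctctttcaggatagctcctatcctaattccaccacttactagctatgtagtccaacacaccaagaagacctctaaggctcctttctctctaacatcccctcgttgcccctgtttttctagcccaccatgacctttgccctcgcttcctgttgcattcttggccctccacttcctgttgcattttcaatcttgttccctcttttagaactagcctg
Ccl9, chr11:83578637-83578886, minus strand: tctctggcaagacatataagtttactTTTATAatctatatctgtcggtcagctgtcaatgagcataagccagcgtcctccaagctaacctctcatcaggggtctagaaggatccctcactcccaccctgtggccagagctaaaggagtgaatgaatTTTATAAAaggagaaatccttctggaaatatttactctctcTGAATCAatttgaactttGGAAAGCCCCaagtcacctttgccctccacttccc

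The Ccl9 window held an NF-kappaB match 35 bases before the start on the opposite strand, an AP-1 match 53 bases before it, and 3 TATAAA matches at 224, 94 and 92 bases, the last 2 of which overlap. The Ccl6 window held none of the 4 motifs, which says only that these letters are not in it. Among 32851 promoter windows of the same length, 3.90% held the NF-kappaB consensus, 6.75% the AP-1 letters, 12.4% TATAAA and 5.85% the STAT6 letters. A match is a description of the letters, not of binding.

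Ccl6 was the most widespread of the 8 genes, with a UMI in 47.5% of all cells. It stood at 7707 CPM (7680 to 7735) in the 2483 alveolar macrophage-like cells, which held 53.4% of its UMIs, and at 7448 CPM in cluster 6, which held 28.001%. Eosinophil-like cells followed at 6566 CPM (6173 to 6977) and basophil-like cells at 5686 CPM. The eosinophil-like cells had a median of 552 UMIs, against 15581 in alveolar macrophage-like cells, and 211 of the 239 came from library 7. Among the 2483 alveolar macrophage-like cells, a group of 146 was led by cell division genes such as Plk1 and Ccnb1. In alveolar macrophage-like cells, Ccl6 was 9019 CPM in library 1, 9067 in library 2, 3725 in library 3 and 9347 in library 7. Library 3 stood apart, at 2.51-fold below the highest, and the share of cells with a UMI was 99.4% to 100% in all 4 libraries. A highest library at least 4 times the lowest occurred for 4.99% of genes in this class, and Ccl6 was not among them. In cluster 6 the order was similar at its low end, with 8887, 6129, 3702 and 5711 CPM in libraries 1, 2, 3 and 7. Cluster 6 held 943, 153, 39 and 701 cells in these libraries, so that library 3 rests on few cells there.

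Ccl9 had another order of sources. It stood at 3144 CPM (2974 to 3322) in basophil-like cells, 3.23 times the 975 CPM of cluster 6, and at 749 CPM in C1q macrophage-like cells and 576 CPM in classical monocyte-like cells. Alveolar macrophage-like cells, the highest for Ccl6, had 0.0253 Ccl9 UMIs per Ccl6 UMI, against 0.131 in cluster 6, 0.492 in classical monocyte-like cells, 0.553 in basophil-like cells and 0.734 in C1q macrophage-like cells. Neutrophil-like and eosinophil-like cells, at 0.0377 and 0.0442, lay close to alveolar macrophage-like cells. The monocyte ratio was 0.435 to 0.618 over all 7 libraries, and the alveolar macrophage ratio was 0.0180 to 0.0601 over libraries 1, 2, 3 and 7. These ranges did not overlap, and the share of other gene pairs for which this holds was not counted.

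Ccl9 varied more between libraries than Ccl6 in alveolar macrophage-like cells and in cluster 6. In alveolar macrophage-like cells it was 542 CPM in library 1, 191 in library 2, 66.9 in library 3 and 254 in library 7, a range of 8.10-fold. In cluster 6 it was 1171, 423, 229 and 881 CPM, a range of 5.11-fold beside 5.24% of genes with a range of at least 4-fold there. In classical monocyte-like cells it lay between 671 and 796 CPM in the same libraries, a range of 1.19-fold, where 1.14% of genes reached a 4-fold range. In C1q macrophage-like cells the range was 1.70-fold for Ccl9, with library 2 lowest at 519 CPM, and 1.87-fold for Ccl6. Library 3 was thus the lowest for Ccl9 in alveolar macrophage-like cells and cluster 6, and not in the C1q macrophage-like or monocyte-like class. Cells with UMIs of both Ccl6 and Ccl9 were 1.04 times the number expected within a library and class (1.02 to 1.06).

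**Figure D3:**
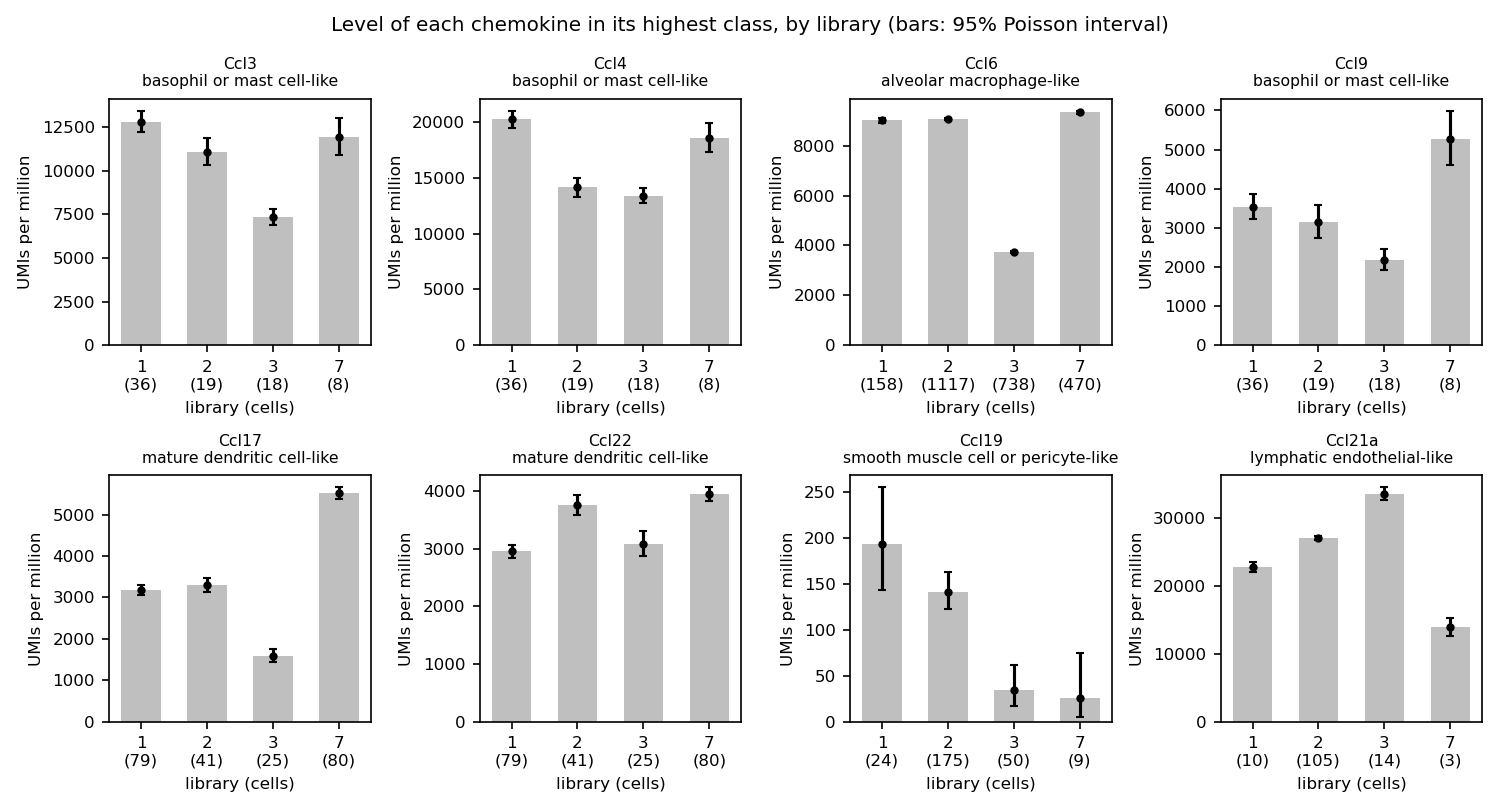
Level of the chemokines in the classes that led for them, with 1 bar per library, in CPM of the class with exact 95% Poisson intervals as error bars. Library 3 has the lowest bar for Ccl6 in alveolar macrophage-like cells at 3725, and library 7 the highest for Ccl17 in mature dendritic cell-like cells at 5520.

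Ccl17 and Ccl22 lie 58753 bases apart on chromosome 8, both on the plus strand, Ccl22 at chr8:94745590-94751699 and Ccl17 at chr8:94810453-94812036. Their upstream windows are shown because the genes shared a highest class and parted in the others.

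Ccl17, chr8:94810203-94810452, plus strand: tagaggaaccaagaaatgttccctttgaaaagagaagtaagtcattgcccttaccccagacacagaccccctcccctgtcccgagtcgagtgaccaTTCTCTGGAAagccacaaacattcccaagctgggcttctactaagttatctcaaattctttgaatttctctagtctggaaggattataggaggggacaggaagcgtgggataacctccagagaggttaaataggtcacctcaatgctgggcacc
Ccl22, chr8:94745434-94745683, plus strand: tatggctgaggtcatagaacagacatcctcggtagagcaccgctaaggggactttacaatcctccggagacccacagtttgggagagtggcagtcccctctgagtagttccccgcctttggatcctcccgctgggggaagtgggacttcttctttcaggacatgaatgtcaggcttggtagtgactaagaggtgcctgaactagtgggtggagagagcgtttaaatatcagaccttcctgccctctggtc

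The Ccl17 window held 1 match to the STAT6 letters, 154 bases before the start, and the Ccl22 window held none of the 4 motifs. The windows are not alike in placement. That of Ccl22 ends at 94745683, inside the gene as placed above from 94745590, whereas that of Ccl17 ends directly before its gene. STAT6 is the transcription factor that acts downstream of interleukin 4 and interleukin 13.

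Mature dendritic cell-like cells, named from markers of dendritic cells ready to migrate such as Fscn1 and Ccr7, numbered 228. Ccl17 stood at 3923 CPM (3850 to 3997) there and Ccl22 at 3454 CPM (3386 to 3524). Ccl22 was largely held by this class, with 77.1% of its UMIs and a level 25.9 times the next, type 2 dendritic cell-like cells at 133 CPM. Ccl17 was spread over more classes. The mature class held 29.3% of its UMIs, type 2 dendritic cell-like cells 28.4% at 1246 CPM, cluster 6 held 20.8% at 355 CPM and type 1 dendritic cell-like cells 10.1% at 469 CPM. There were 0.881 Ccl22 UMIs per Ccl17 UMI in mature dendritic cell-like cells (0.857 to 0.905), 0.187 in type 1 and 0.107 in type 2 dendritic cell-like cells, and 0.0263 in cluster 6.

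Over libraries 1, 2, 3 and 7, Ccl17 in mature dendritic cell-like cells was 3180, 3293, 1583 and 5520 CPM, and Ccl22 was 2952, 3751, 3081 and 3945 CPM, in 79, 41, 25 and 80 cells. Ccl17 ranged 3.49-fold and Ccl22 1.34-fold, and 4.52% of genes ranged at least 4-fold in this class. The ratio of Ccl22 to Ccl17 was therefore highest in library 3, at 1.95, and lowest in library 7, at 0.715. In type 2 dendritic cell-like cells, Ccl17 was 1098, 1137, 615 and 2981 CPM in the same libraries, again lowest in library 3 and highest in library 7. This range was 4.85-fold, beside 2.16% of genes with a range of at least 4-fold in that class. In library 7, a single cell held 748 of the 4300 Ccl17 UMIs of that class.

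Much of the Ccl17 outside the classes named as dendritic cell-like came from single libraries or single cells. Cluster 6 is counted outside them because it was left unnamed. Ccr7, a marker of the mature dendritic class, had a UMI in 1.91% of cluster 6 cells and 1.25% of alveolar macrophage-like cells. The share was 3.60% in type 1 and 11.1% in type 2 dendritic cell-like cells. The cell type of cluster 6 was not tested. Cluster 6 had 574 CPM in library 1 and 80.1 to 227 in libraries 2, 3 and 7, and 90.7 CPM over the class without library 1, against 355 with it. Alveolar macrophage-like cells had 275 CPM in library 1, with a UMI in 37.3% of 158 cells, against 3.77 to 11.6 CPM in the other 3. C1q macrophage-like cells of library 1 held 1095 Ccl17 UMIs, in 52 of 319 cells. In those of library 7, a single cell held 358 of 407 UMIs. In classical monocyte-like cells of library 7, a single cell held 209 of 212 UMIs.

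Ccl17 and Ccl22 were also found in the same cells. Of the 228 mature dendritic cell-like cells, 168 had a UMI of both, 9 of Ccl17 alone, 23 of Ccl22 alone and 28 of neither. Over all cells, 430 had both, which was 1.47 times the number expected within a library and class (1.33 to 1.61), and 1.61 times (1.38 to 1.86) after thinning to 1500 UMIs. The corresponding ratio was 1.04 for Ccl6 with Ccl9, and for Ccl19 with Ccl21a it was 0.896 on 9 cells, with an interval of 0.410 to 1.70.

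Ccl21a and Ccl19, the ligands of Ccr7, lie 16282 bases apart on the minus strand of chromosome 4, at chr4:42772860-42773993 and chr4:42754525-42756577. Both have near-identical copies in the mouse genome, between which reads can be split, so their levels are uncertain. The second identifier of each symbol and both identifiers of Ccl21b had 0 UMIs, and Ccl21c had 13. Ccl21a stood at 26866 CPM (26601 to 27133) in the 132 lymphatic endothelial-like cells, named from markers such as Prox1, Mmrn1 and Flt4, with 90.8% of its UMIs. The next class, cluster 46, was 88.3 times lower at 304 CPM, and 86 of its 93 cells were marked as doublets by Scrublet. A median lymphatic endothelial-like cell carried 228.5 Ccl21a UMIs. By library, the class had 22747 CPM in library 1 (10 cells), 27111 in library 2 (105 cells), 33555 in library 3 (14 cells) and 13898 in library 7 (3 cells). The library totals of Ccl21a spread further, at 91.1, 437, 118 and 14.3 CPM, beside 0.208%, 1.38%, 0.273% and 0.0909% of cells in the lymphatic class. Ccl21a was at 0 UMIs in libraries 4, 5 and 6, in which no lymphatic endothelial-like cell was found.

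Ccl19 was the rarest member, with 498 UMIs in 208 cells. It stood at 124 CPM (110 to 140) in the 258 smooth muscle/pericyte-like cells, which held 51.8% of its UMIs, and at 7.498 CPM in fibroblast-like cells, which held 28.5%. The next class by level, cluster 62, rested on 8 UMIs of a single cell. By library, the level in the smooth muscle/pericyte-like class was 193 CPM in library 1, 141 in library 2, 34.2 in library 3 and 25.6 in library 7, with 24, 175, 50 and 9 cells. In library 1, however, a single cell held 41 of the 49 UMIs, and without it the level there was 33.3 CPM (14.4 to 65.5). The 5.65-fold range over the 3 libraries with at least 20 such cells, beside 2.19% of genes with a range of at least 4-fold, rested on that cell at its upper end. Without the highest cell of each library, library 2 was highest at 120 CPM (103 to 140), against 33.3 in library 1 and 28.3 in library 3. A spread between these libraries thus remained without those cells. The class was named from smooth muscle genes such as Acta2, at 11069 CPM, and Myh11, at 1884, and from the pericyte genes Pdgfrb, at 630, and Cspg4, at 189. Mature dendritic cell-like cells, a textbook source of Ccl19, had 0 UMIs in 228 cells, for which the limit of 3 counts is 1.08 CPM. Lymphatic endothelial-like cells likewise had 0 UMIs, for which the limit of 3 counts is 2.05 CPM. Both limits cover counting only, not the uncertainty from the near-identical copies, so they do not show that the transcript is absent. By the counts assigned to each gene, the ligands of Ccr7 had separate highest classes, and 9 cells held UMIs of both.

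The share of cells with a UMI was set against that in B cell-like cells, of which libraries 1, 2, 3 and 7 held 1356, a class that should lack most of these transcripts, at a median of 4001 UMIs per cell. Ccl6 was found in 99.96% of alveolar macrophage-like cells, at a median of 15581 UMIs, and in 16.8% of B cell-like cells. To compare at 1 depth, each cell was thinned to 1500 UMIs, which left out 25 B cell-like and at most 21 cells of the classes named here. Ccl6 was then found in 97.5% of alveolar macrophage-like and 4.81% of B cell-like cells. In mature dendritic cell-like cells, at a median of 11836 UMIs, Ccl17 fell from 77.6% to 58.2% of cells with thinning and Ccl22 from 83.8% to 67.3%, against 0.601% and 0.150% of thinned B cell-like cells. In basophil-like cells, at a median of 4111 UMIs, the thinned shares were 89.7% for Ccl3, 85.1% for Ccl4 and 87.4% for Ccl9, against 0.225%, 0.826% and 0.676%. Ccl21a was found in 98.5% of lymphatic endothelial-like cells with and without thinning, against 0.751%. Ccl19 went from 24.4% to 8.44% of smooth muscle/pericyte-like cells, and 0 of 1356 B cell-like cells had a UMI of it, for which the exact interval reaches 0.272%. Each highest class was picked by the level of the same member in these cells, and B cell-like cells as a class that should lack it. A higher share in the highest class was thus set by that choice, and the shares describe detection only.

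The transcripts of several members sat in few cells. For Ccl19, 19 cells held 50% of the UMIs, for Ccl21a 32 cells, for Ccl22 35 cells, for Ccl17 89 cells and for Ccl4 99 cells. Ccl3 needed 153 cells, Ccl6 1033 and Ccl9 1059. The highest cell carried 2089 Ccl21a UMIs. Of the 35 cells for Ccl22, 32 were mature dendritic cell-like, and of the 89 for Ccl17, 32 were mature and 25 type 2 dendritic cell-like.

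**Figure D4:**
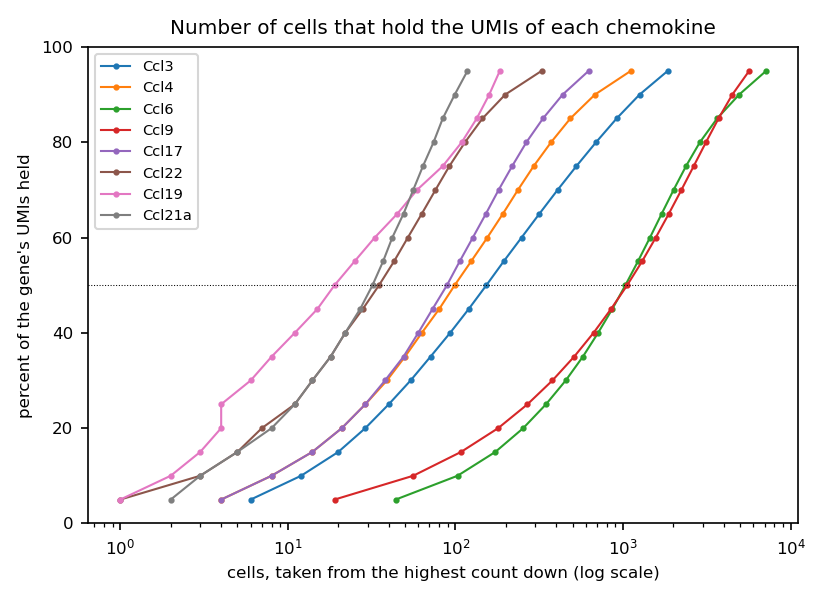
Cumulative share of each chemokine's UMIs (vertical axis, percent) over cells ranked from the highest, with the number of cells on a log horizontal axis. The curve of Ccl19 reaches 50% at 19 cells and that of Ccl9 at 1059 cells.

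Several leukocyte classes were found in both sets of libraries, with other chemokine levels in libraries 4, 5 and 6, where no alveolar macrophage-like or eosinophil-like cell was found. In neutrophil-like cells, Ccl3 was 154 to 418 CPM in libraries 1, 2, 3 and 7 and 0 to 3.57 in libraries 4, 5 and 6, or 234 against 1.66 over the sets, a 141-fold difference. Ccl4 was 202 to 876 against 3.17 to 5.49 CPM, an 85.9-fold difference. The ranges did not overlap for either gene, and the share of all genes for which this holds was not counted. Within libraries 1, 2, 3 and 7, Ccl4 ranged 4.34-fold, with library 7 highest, beside 3.37% of genes with a range of at least 4-fold. A level at least 4 times higher in libraries 1, 2, 3 and 7 occurred for 3.46% of genes in this class. Ccl6, at 2549 against 1485 CPM, differed 1.72-fold with overlapping ranges. Most neutrophil-like cells of the 2 sets lay in different clusters, with 89.5% of those of libraries 1, 2, 3 and 7 in cluster 9 and 5.12% of those of libraries 4, 5 and 6. Within cluster 9, Ccl3 was 307 against 9.39 CPM and Ccl4 527 against 4.69 CPM, on 45 cells of libraries 4, 5 and 6. These 45 cells held very few UMIs of either gene, and 42 of them came from library 5. Cluster 27 held 35.8% of the neutrophil-like cells of libraries 4, 5 and 6, and 35 cells of the other set. There the gap was smaller, with Ccl3 at 4.31 against 2.12 CPM and Ccl4 at 4.31 against 3.18 CPM. Ccl6 ran the other way in cluster 27, at 914 against 2079 CPM. The differences were 14.7-fold for Ccl3 and 94.1-fold for Ccl4 in cluster 37, and 72.2-fold and 3.61-fold in cluster 39. Cluster 31 held no cell of libraries 1, 2, 3 and 7. Leaving out library 7 lowered Ccl4 over all neutrophil-like cells from 186 to 94.9 CPM and Ccl3 from 108 to 67.0 CPM.

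The same direction was measured for Ccl3 and Ccl4 in other leukocyte classes, though not in each of their clusters. In NK cell-like cells, Ccl3 was 242 against 46.6 CPM and Ccl4 974 against 138, beside 2.09% of genes at least 4 times higher. Cluster 23 held 85.2% of the NK cell-like cells of libraries 1, 2, 3 and 7 and 47.4% of those of libraries 4, 5 and 6. Within it Ccl3 was 319 against 87.9 CPM, a 3.63-fold difference, and Ccl4 1304 against 301, a 4.33-fold difference. Within cluster 38, Ccl3 was 73.9 against 30.9 CPM and Ccl4 194 against 54.8 CPM. Within cluster 49 the direction was reversed, with Ccl3 at 0 against 6.21 CPM and Ccl4 at 34.3 against 49.7 CPM, on 18 and 44 cells. In classical monocyte-like cells, Ccl3 was 29.8 against 2.97 CPM and Ccl4 33.1 against 2.29, beside 1.31% of genes. There Ccl6 and Ccl9 differed 1.55-fold and 1.54-fold. There, 99.2% and 75.4% of the cells lay in cluster 2, within which Ccl3 was 30.1 against 3.59 CPM. In T cell-like cells, Ccl4 was 106 against 11.7 CPM, beside 2.05% of genes. Most T cell-like cells of the sets lay in different clusters, with 62.7% against 19.6% in cluster 13 and 36.5% against 77.1% in cluster 14. Within cluster 13, Ccl4 was 128 against 39.9 CPM, a 3.20-fold difference, and within cluster 14 it was 17.0 against 1.03 CPM. Ccl3 was 23.1 against 13.3 CPM within cluster 13 and 1.33 against 0 CPM within cluster 14. In nonclassical monocyte-like cells, Ccl3 was 42.5 against 2.35 CPM and Ccl4 18.8 against 1.68, beside 0.919% of genes, with 98.2% and 68.5% of the cells in cluster 11. In B cell-like cells, Ccl6 was 36.7 against 11.6 CPM, under the 4-fold mark that 1.17% of genes reached there, while within cluster 3, which held 82.3% and 34.0% of these cells, it was 45.0 against 6.70 CPM, a 6.72-fold difference. Haemoglobin and surfactant transcripts separated the same sets of libraries, and their part in these differences was not tested. Total Ccl6 was 1329 to 4025 CPM in libraries 1, 2, 3 and 7, against 193 to 481 in libraries 4, 5 and 6. The club cell gene Scgb1a1 had a UMI in 94.4% of alveolar macrophage-like cells. RNA from outside the cells was not estimated, and its part in low levels, such as Ccl6 in B cell-like cells, was not tested.

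Type 2 dendritic cell-like cells showed the widest gap for Ccl17. It was 1398 CPM in the 520 cells of libraries 1, 2, 3 and 7 and 0 in the 77 cells of libraries 4, 5 and 6, at least 428-fold higher when 3 counts over the set are taken as the limit. Ccl22 was 149 CPM against 0, a 45.8-fold difference by the same setting, and 5.02% of genes were at least 4 times higher in this class. Ccl6 and Ccl9 ran the other way, at 0.654 and 0.626 of the level in libraries 4, 5 and 6. The marker gene Cd209a was alike in the sets, at 842 and 969 CPM, while Mgl2 was 1428 against 81.7 CPM and H2-DMb2 389 against 50.1 CPM. Whether the cells of the 2 sets are the same type was not tested.

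**Figure D5:**
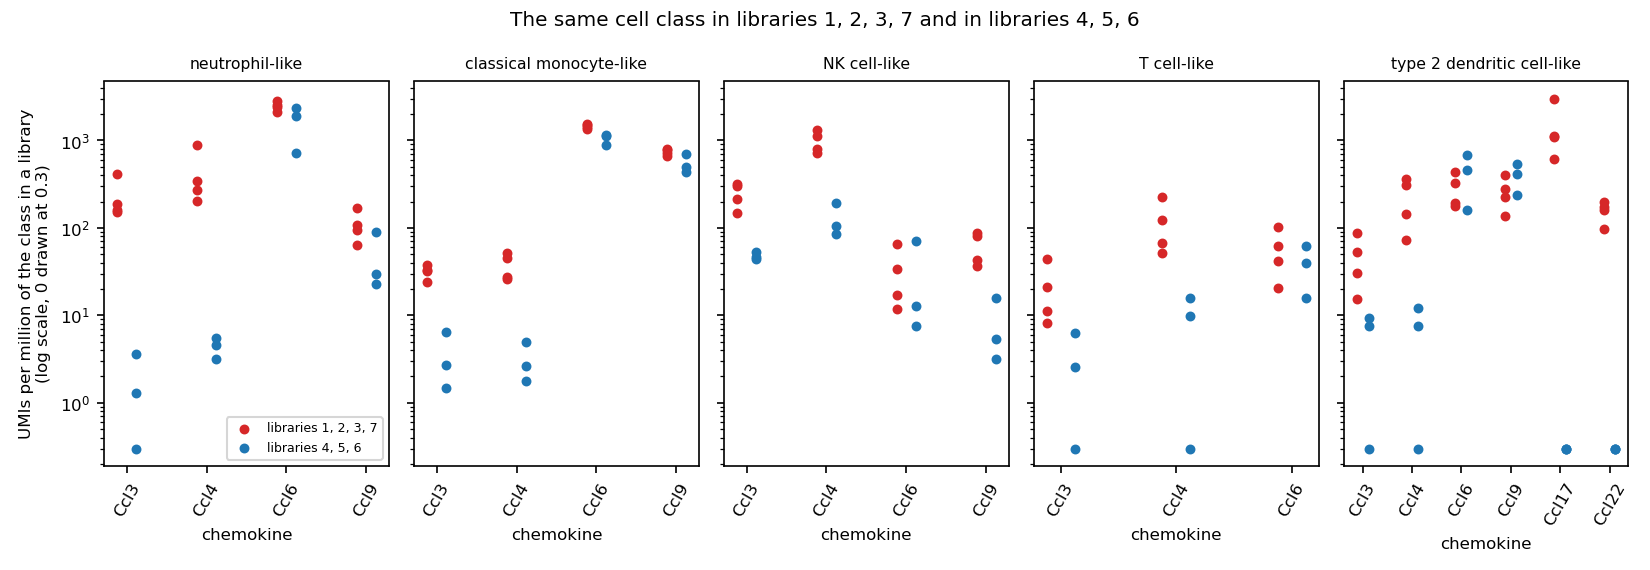
Levels of the chemokines in 5 classes, with 1 point per library, in CPM of the class on a log axis with 0 drawn at 0.3. Red points are libraries 1, 2, 3 and 7 and blue points are libraries 4, 5 and 6. For Ccl3 and Ccl4 all red points lie above all blue points in the classes shown. The share of all genes with such a layout was not counted. In type 2 dendritic cell-like cells, Ccl17 and Ccl22 are at 0 in all 3 blue libraries.

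Receptors of these ligands were measured in the same cells. Ccr1, a receptor of Ccl3, Ccl6 and Ccl9, was highest in cluster 43 at 1157 CPM, followed by neutrophil-like cells at 722 CPM, and stood at 388 CPM in basophil-like cells. Ccr4, the receptor of Ccl17 and Ccl22, was highest in T cell-like cells at 21.0 CPM, 7.51 times the next class. Ccr7 was 2139 CPM in mature dendritic cell-like cells, for which it was a naming marker, 313 in T cell-like and 273 in B cell-like cells. Of the atypical receptors, which bind ligands without classical signalling, Ccrl2 was highest in cluster 43 at 2101 CPM. The scavenger Ackr2 was highest in lymphatic endothelial-like cells at 108 CPM, and Ackr1 and Ackr4 in vascular endothelial-like cells at 12.5 and 19.2 CPM.

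Across 56 clusters of at least 50 cells, the genes with the pattern most like each member were ranked by Pearson's r of log2(CPM + 1). Clusters share libraries and depth, and the values are descriptions. Ccl3 was nearest to Osm (0.852), Tnfaip3 (0.796) and Dusp5 (0.784), and Ccl4 to Tnfaip3 (0.787), Rgs1 (0.743) and Dusp5 (0.714). For Ccl6 they were Fcgr3 (0.919), Arl11 (0.911) and Alox5 (0.896), and for Ccl9 Trem2 (0.854), Lgals3 (0.819) and Fcgr3 (0.808). Ccl17 was nearest to Gatm (0.876), Dcstamp (0.861) and Cxcl9 (0.835), and Ccl22 to Il12b (0.794), 9530059O14Rik (0.762) and Mgl2 (0.756). For Ccl19 they were Galnt16 (0.974), Gpc6 (0.963) and Gucy1a2 (0.948), and for Ccl21a Prox1 (0.823), a naming marker of its class, Apba2 (0.814) and Thsd7a (0.8002). Among the members, r was 0.871 for Ccl3 with Ccl4, 0.834 for Ccl17 with Ccl22 and 0.831 for Ccl6 with Ccl9.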

How the data were processed

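Single-cell RNA was measured in 1 matrix of UMI counts that the authors deposited, made with Cell Ranger 3.1.0 per the file headers and with STAR on build mm10 per the labels. The labels give the v3 reagent kit and the supplementary methods another version. The study evened out reads between libraries, so depth partly reflects that step.

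Barcodes with more than 10% mitochondrial UMIs were removed. Counts were scaled to 10000 per cell, and 2000 variable genes without the 8 chemokines gave 30 components, which were aligned between libraries and clustered with leidenalg 0.10.2 at resolution 0.8 (scanpy 1.11.5). Clusters were named from marker lists by 3 or more detected markers. The members and lists were chosen with earlier results of these data known, and the choice of variable genes, the sub-clustering and the naming rule were settled once the clusters had been looked at. Counts were summed per class, with exact 95% Poisson intervals for CPM and binomial intervals for shares, and 3 counts as the limit for a count of 0. Named genes were the members, 8 receptors (1 of which is not reported here), naming markers, tissue check genes, the leading genes of described clusters, and for each member the 3 genes most correlated over clusters. Doublets were treated only in an alternative, with Scrublet. The scripts were tested on simulated data. Alternatives were other filters, resolutions, alignment, weights, a marker gate and left-out libraries.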

Additional observations from a re-analysis of the deposited data

Results flagged for a closer look

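Of 14 sets of libraries looked at for a value far from the others, 2 held one, and chance alone gives about 1 in 20. Ccl6 in alveolar macrophage-like cells was 3725 CPM in library 3 and 9019 to 9347 in the other 3 libraries. Ccl17 in type 2 dendritic cell-like cells was 2981 CPM in library 7 and 0 to 1137 in the other 6. A single cell held 17.4% of the Ccl17 UMIs of this class in library 7. Over libraries 1, 2, 3 and 7 alone, the gap to the next library was 0.779 of the whole range for Ccl17, which no longer set library 7 apart by the same criterion.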

How the results depend on the processing

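Levels in the highest class moved by more than their counting interval as follows. Leaving out each library in turn gave 8273 to 10772 CPM for Ccl3, 12738 to 15887 for Ccl4, 6623 to 9149 for Ccl6, 2896 to 3572 for Ccl9, 2887 to 4279 for Ccl17, 3136 to 3695 for Ccl22, 90.9 to 141 for Ccl19 and 26085 to 27444 for Ccl21a. The study's filter at 2 SD gave 10712 (Ccl3), 16671 (Ccl4), 7455 (Ccl6), 3445 (Ccl9), 3396 (Ccl17), 84.3 (Ccl19) and 26248 (Ccl21a), and an unnamed cluster 57 then led for Ccl6 at 7677. A gate on 3 markers gave 7026, 10861, 7272, 2482, 2546, 2396, 45.5 and 24163 for Ccl3, Ccl4, Ccl6, Ccl9, Ccl17, Ccl22, Ccl19 and Ccl21a. Equal weight per library gave 12807 (Ccl3), 20224 (Ccl4) and 3534 (Ccl9), each from 1 library, 7789 (Ccl6) and 3394 (Ccl17). Without alignment, Ccl6 was 7976, Ccl17 2120 and Ccl22 1020, the last 2 over a class of 744 cells. Ccl6 was 7602 at resolution 0.4, 8058 at resolution 1.5 and 7766 without Scrublet calls, a caller that marked under 0.5% of cells in libraries 4, 5 and 6. Ccl19 was 60.8 at resolution 1.5, where unnamed cluster 78 led at 79.4. It was 105 without the cell with most UMIs, an alternative chosen after seeing the data. At resolution 0.4 no mature dendritic cell-like class was found, so Ccl17 and Ccl22 have no value for that class there. A type 2 dendritic cell-like class of 825 cells then led for both genes, with Ccl17 at 1906 and Ccl22 at 952. The mature class as the highest for these genes thus depended on the resolution. Libraries 1, 2, 3 and 7 alone, chosen after seeing the data, gave 10518 for Ccl3 and 16513 for Ccl4. Thinning lowered the shares of cells to 97.5% (Ccl6), 58.2% (Ccl17), 67.3% (Ccl22) and 8.44% (Ccl19), and moved the pair ratio of Ccl6 with Ccl9 to 1.07. The cause of these moves was not tested. No paired analysis was possible because no library carries a sample or replicate number, and no test between groups was run. Depth limits Ccl19 most, and rare classes rest on few cells per library.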
